A study of Mus musculus with 2 samples.

Results

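Spatial expression was compared between a skin section that received ultraviolet radiation (UVR) together with the retinoid 9-cis HPR at 0.03% and a section that received UVR alone, both from female mice of the hairless strain SKH-1. The spots of these 2 sections that held at least 200 unique molecular identifiers (UMIs, each a counted probe molecule) were chosen by section: 1291 of the 2174 such spots in the series, 644 of them HPR-treated and 647 UVR. The mice were 10 to 12 weeks old. The 4 sections of the series were control skin ("normal skin" in the labels), UVR skin, UVR skin given 0.1% retinol and UVR skin given 9-cis HPR, and all but the control received UVR. Control and UVR skin shared 1 capture area and both treated skins shared the other, so the capture area cannot be told apart from treatment. Radiation dose, treatment schedule and vehicle are not given in the sources used here, and no separate animals are named, so each group is 1 sample. No test between groups was possible. The 95% intervals below are exact binomial (Clopper-Pearson) intervals, computed from how each gene's UMIs divided between the sections, and cover counting error only.

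The labels name the sections as upper and lower pieces of an area. Upper was read as the top of the tissue image; the rows of the spot grid run the opposite way, and reading them instead exchanges both sections of each area. Under that reading the comparison becomes retinol-treated over control skin as named here, the epidermal gene counts below turn from 61 higher and 246 lower to 207 and 61, and 36 of the 91 epidermal genes named here with a ratio past 2-fold change direction. A turn means only that the ratio lies on the other side of 1. For *Bax*, *Duox1*, *Cenpm* and *Tmem229b* it then lies near 1, at log2 values of 0.0714, 0.0399, 0.12 and 0.12. Every direction below holds for the image reading. Of the spot barcodes, 430 occurred on both areas, since the areas share a barcode layout, and spots were told apart by area.

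Epidermis renews itself from basal keratinocytes, which carry the keratins KRT5 and KRT14, divide, and move upward through spinous and granular layers into the cornified layer. After injury or irradiation, keratinocytes above the basal layer switch on the keratins KRT6, KRT16 and KRT17 and small proline-rich (SPRR) proteins, and the epidermis thickens. Retinoids enter keratinocytes, are bound by carrier proteins, and act through nuclear receptors, of which RARG and RXRA are the main ones in epidermis; topical retinoids are known for effects on keratinocyte growth and differentiation and on dermal collagen.

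The HPR-treated section was sampled less deeply than the UVR section. It held 1249928 UMIs in kept spots (median 653 per spot) and UVR skin 2558616 (median 1641); the other sections had medians of 527 (control) and 982 (retinol-treated). Epidermal spots were those with at least 1000 UMIs of which *Krt5*, *Krt14* and *Lor* made up at least 3%. They numbered 181 in HPR-treated skin, 28.1% of its kept spots (24.7% to 31.8%), and 261 in UVR skin, 40.3% (36.5% to 44.2%). The minimum of 1000 UMIs, which 241 of 644 HPR-treated and 402 of 647 UVR spots reached, bears on these shares. Among spots that reached it the epidermal share was 75.1% (69.1% to 80.4%) in HPR-treated and 64.9% (60.0% to 69.6%) in UVR skin, while without a minimum 252 of 644 and 343 of 647 kept spots were epidermal, so the order of the sections turns with the spots counted. Epidermal spots carried 75.8% and 82.7% of each section's UMIs, with medians of 4378 and 6038 UMIs per spot. Epidermal spots in which *Krt5* and *Krt14* together exceeded *Lor*, called basal-rich, were 128 of 181 in HPR-treated skin (70.7%, 63.5% to 77.2%) and 226 of 261 in UVR skin (86.6%, 81.8% to 90.5%); retinol-treated skin had 135 of 176 and control skin 12 of 72. The other epidermal spots are called cornified-rich. Muscle spots, in which 7 muscle genes made up at least 3% of UMIs, numbered 194 and 172, with medians of 556 and 1658.5 UMIs. The keratin genes of epidermis and the muscle genes were abundant in separate bands of both sections. A spot covers several cells, and within a spot fewer cells of a type and less RNA per cell cannot be told apart.

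**Figure D1:**
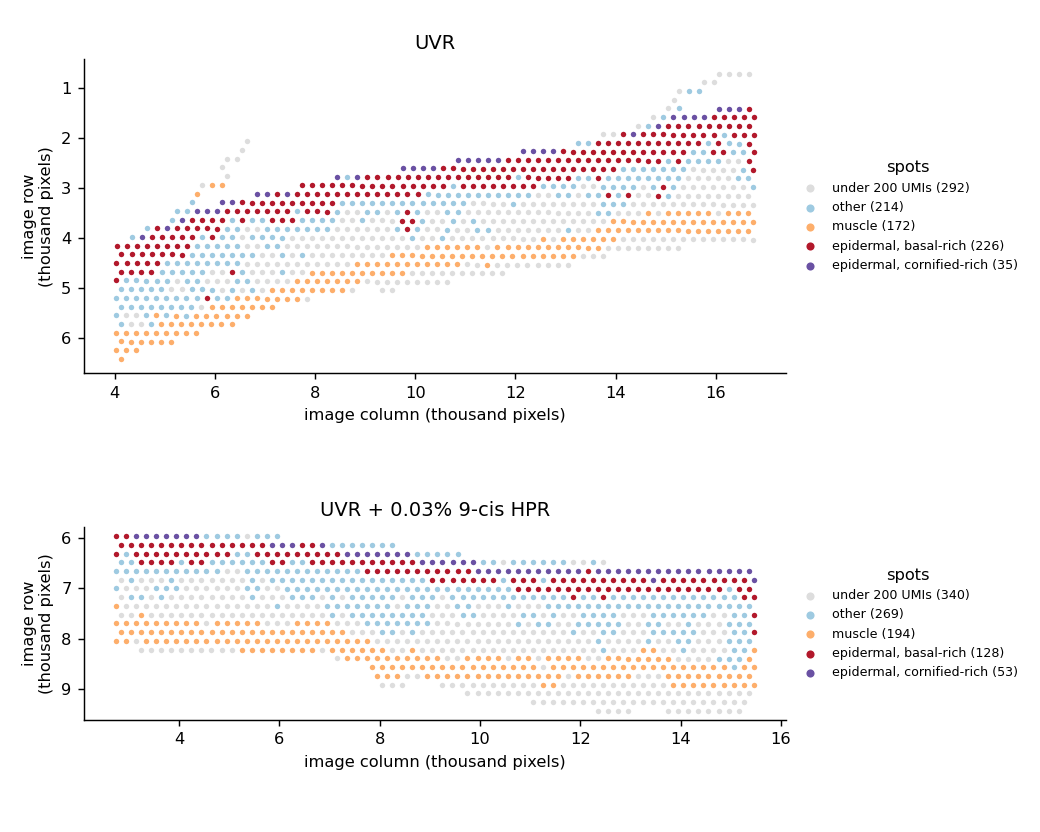
Spots over tissue in the UVR section (top) and the HPR-treated section (bottom), placed by image column and row in units of 1000 pixels and coloured by layer; numbers in the legend count spots. Epidermal spots form a band along the upper edge, with 35 cornified-rich spots in UVR skin and 53 in HPR-treated skin, and muscle spots form a band along the lower edge.

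Levels are given as CPM, the UMIs of a gene scaled to a total of 1000000 UMIs over the spots named. Over the whole section 2813 genes had at least 100 UMIs in the 2 sections together; 96 (3.41%) were at least 2-fold higher in HPR-treated skin and 259 (9.21%) at least 2-fold lower. In epidermal spots 2298 genes were compared, of which 61 (2.65%) were higher and 246 (10.7%) lower. Here "rose" and "fell" mean past 2-fold on at least 100 UMIs. The median epidermal gene had a log2 ratio of -0.17, so ratios would sit 0.17 higher if that median were set to 0, and the counts would be 95 and 172. Over the genes with at least 20 UMIs, the minimum used for members of lists, the median was -0.21. Counts of list members that rose or fell in epidermal spots are to be read against these 2.65% and 10.7%, and list medians against -0.21. In basal-rich spots 58 genes rose (2.76%) and 221 fell (10.5%) of 2103, and in cornified-rich spots 35 rose (5.57%) and 45 fell (7.17%) of 628.

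**Figure D2:**
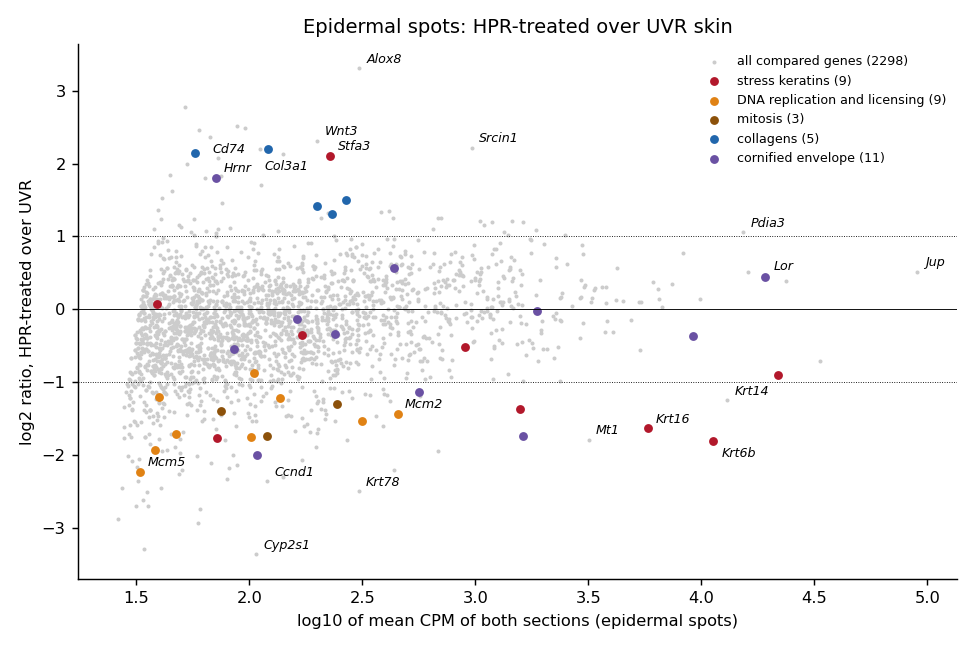
Log2 ratio of HPR-treated over UVR skin in epidermal spots against the log10 of the mean CPM of both sections, for 2298 genes (grey); members of 5 gene lists are coloured, dotted lines mark 2-fold. DNA replication genes (orange) lie below 0 and collagens (blue) above it, while *Alox8* and *Cyp2s1* lie at the ends, at 3.31 and -3.37.

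Of the keratins of injured epidermis, *Krt6b* and *Krt16* were far lower in HPR-treated than in UVR epidermis, though above control levels. *Krt6b* (ENSMUSG00000023041, chr15:101676023-101680293 of GRCm38), a keratin of wounded and thickened epidermis, stood at 4993 CPM in HPR-treated, 17489 in UVR, 3386 in retinol-treated and 433 in control epidermal spots. It was 3.50-fold lower (3.40 to 3.61). Cut into 4 strips of equal spot number along the image, the HPR-treated epidermis ranged from 3487 to 6079 CPM and the UVR epidermis from 16065 to 19810.4, with no overlap. Its partner *Krt16* (chr11:100246091-100248902) stood at 2825 CPM in HPR-treated, 8784 in UVR, 2245 in retinol-treated and 255 in control epidermis, 3.11-fold lower (2.99 to 3.24), and its strips did not overlap either (1869 to 3342 against 6789 to 10399). The lower level held in both kinds of epidermal spot: *Krt6b* was 3.84-fold lower (3.69 to 3.99) in basal-rich and 4.08-fold lower (3.89 to 4.29) in cornified-rich spots. *Krt17* and *Krt6a*, of the same family, did not pass 2-fold, with log2 ratios of -0.51 and -0.35.

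SPRR proteins are crosslinked into the cornified envelope and are induced with the stress keratins. *Sprr1a* fell, from 2272 to 879 CPM, 2.59-fold lower (2.40 to 2.79), as did *Sprr2h* (32.7 against 111 CPM, 3.40-fold lower, 2.33 to 5.12) and the pseudogene *Sprr2j-ps* (15.8 against 105 CPM). The Sprr2 genes are near-identical copies, so probes may not separate them. *Sprr1b* stood at 15154 against 28305 CPM, 1.87-fold lower (1.83 to 1.90), just under 2-fold; it was 2.48-fold lower in basal-rich spots. *Sprr2d* did not differ beyond counting error (1.05-fold higher, 0.692 to 1.56). *Stfa3*, a stefin protease inhibitor of the same list, rose 4.30-fold (3.59 to 5.17), with 370.2 against 86.1 CPM. Of the 17 listed stress keratin genes 9 had enough UMIs in epidermal spots. Of these 4 fell and 1 rose, against 10.7% and 2.65% of all genes. The list median log2 ratio was -0.90, against -0.21 for all genes with at least 20 UMIs. The retinol-treated section, on the same capture area, had a median of -1.30 over the same UVR section. Under the spot-grid reading *Krt6b*, *Krt16*, *Sprr1a* and *Sprr2h* all turn to higher.

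The promoters of *Sprr1a* and *Sprr2h* are printed because these genes fell with the stress keratins and hold sites for AP-1, the factor pair activated by ultraviolet light and growth signals. Each runs from 250 bases before to 50 after the gene's start (RefSeq, GRCm38.p6), with matches to TGACTCA or TGAGTCA, which are one another's reverse complement, in capitals. *Sprr1a* (chr3:92485832-92486131, minus strand) has matches that begin 146 and 116 bases before the start, and *Sprr2h* (chr3:92385435-92385734, plus strand) has one that begins 198 bases before it.
Sprr1a: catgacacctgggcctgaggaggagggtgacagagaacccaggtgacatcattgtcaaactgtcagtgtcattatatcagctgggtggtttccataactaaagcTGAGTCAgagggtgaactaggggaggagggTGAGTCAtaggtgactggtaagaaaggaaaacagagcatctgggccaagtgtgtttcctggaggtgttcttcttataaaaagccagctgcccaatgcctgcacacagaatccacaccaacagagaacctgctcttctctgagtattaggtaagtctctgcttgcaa
Sprr2h: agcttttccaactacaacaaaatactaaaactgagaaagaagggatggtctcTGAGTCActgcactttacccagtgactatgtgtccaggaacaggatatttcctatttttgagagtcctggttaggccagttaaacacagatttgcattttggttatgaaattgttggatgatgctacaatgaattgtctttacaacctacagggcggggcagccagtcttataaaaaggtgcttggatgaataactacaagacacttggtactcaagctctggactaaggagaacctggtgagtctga
Among the 9 stress keratin promoters found, 4 hold the motif (44.4%), those of *Sprr1a*, *Sprr2d*, *Sprr2h* and *Stfa3*, against 5.20% of all 32851 promoters. *Sprr2d* and *Stfa3* did not fall. The table gives no promoter for *Krt6b* or *Krt16*.

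**Figure D3:**
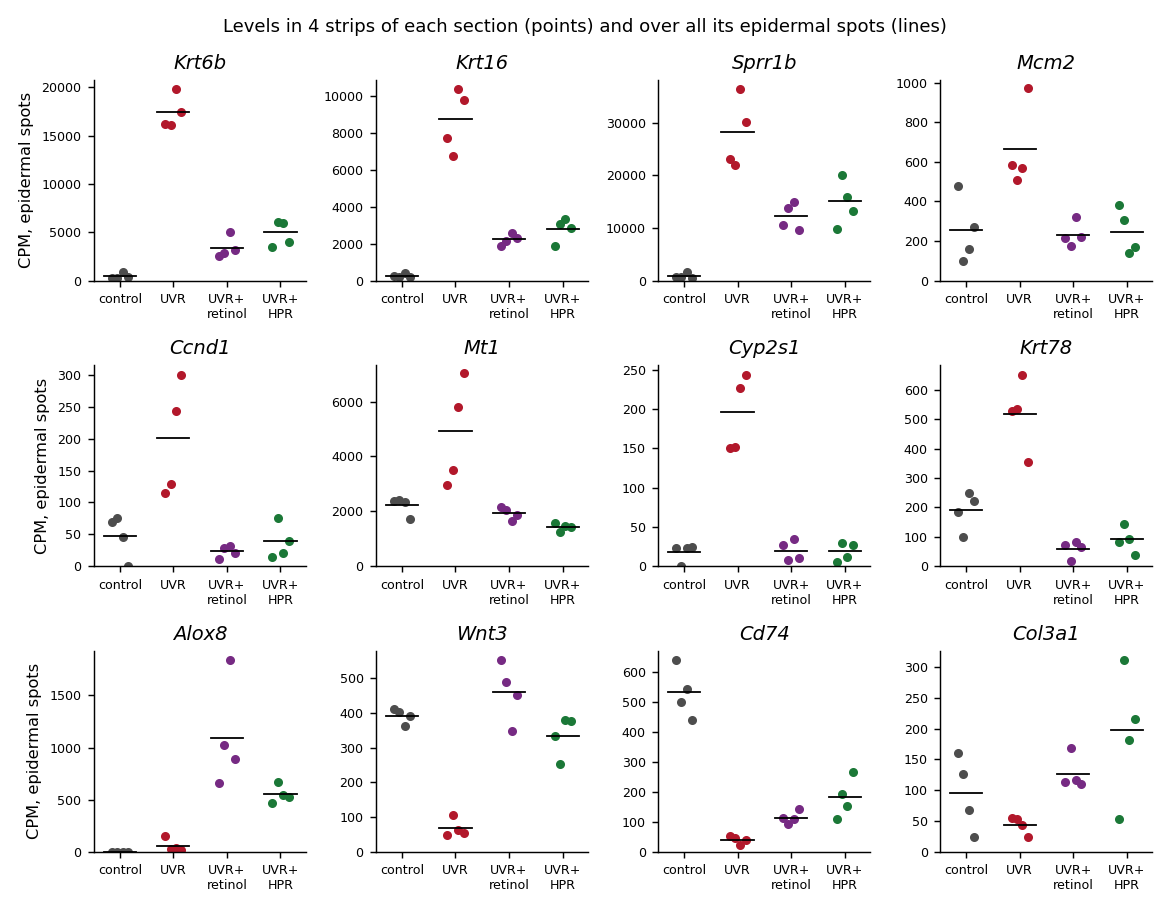
CPM of 12 genes in epidermal spots of each section: points are the 4 strips along the image column, which are not replicates, and black lines the value over all epidermal spots. *Krt6b*, *Krt16*, *Cyp2s1* and *Mcm2* strips of HPR-treated skin lie below all UVR strips, *Alox8* and *Wnt3* strips above them, and the *Col3a1* ranges touch.

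Basal keratinocyte genes were lower in part. *Krt14* fell from 18333 to 7701 CPM, 2.38-fold lower (2.32 to 2.44), with strips of 6517 to 8248 against 15548 to 21453. Its obligate partner *Krt5* stood at 25517 against 41728 CPM, 1.64-fold lower (1.61 to 1.66). Both genes chose the epidermal spots, so their levels are a description; *Krt14* turns higher by the spot grid. *Igfbp2*, a binding protein for insulin-like growth factors, fell to 32.7 from 144 CPM (4.40-fold lower, 3.03 to 6.58), and so did the growth factor gene *Ptn* (2.94-fold lower, 1.78 to 5.13) and *Itgb4*, the integrin of hemidesmosomes (2.08-fold lower, 1.52 to 2.91). *Itga6*, the partner of *Itgb4*, stood at -0.36 on the log2 scale and *Cd44*, the hyaluronan receptor, at 0.25. *Krt15*, a keratin of basal and follicle stem cells, had only 8 and 54 UMIs. Leaving out *Krt5* and *Krt14*, 3 of 9 compared members fell and none rose, and the median of the 15 measured was -0.82, over all epidermal and over basal-rich spots alike. Of the hemidesmosome and basement membrane list, which shares *Itgb4*, *Itga6* and *Lamb3*, 1 of 7 fell.

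Among differentiation genes the cornified envelope parted in different directions. *Hrnr*, a filaggrin relative of the granular layer, rose to 111 from 31.7 CPM, 3.50-fold higher (2.55 to 4.82). *Cdsn*, which holds corneocytes together, fell from 2489.6 to 745 CPM (3.34-fold lower, 3.09 to 3.62), as did *Cnfn* (4.01-fold lower, 2.90 to 5.69) and periplakin, *Ppl* (2.20-fold lower, 1.95 to 2.48). *Lor*, the main envelope protein, stood at 21928 against 16160 CPM, 1.36-fold higher (1.33 to 1.38), and *Flg*, filaggrin, was 1.48-fold higher (1.32 to 1.66). *Lor* helped choose the epidermal spots and their kinds, so its level is a description. *Flg*, which was in no spot rule, was 1.01-fold higher (0.838 to 1.21) in basal-rich and 1.19-fold higher (1.01 to 1.40) in cornified-rich spots. HPR-treated epidermis had the larger share of cornified-rich spots, as given above. *Hrnr* was still 2.47-fold higher in cornified-rich spots; the spot-grid reading turns it lower. *Tgm1*, the crosslinking transglutaminase, and *Casp14*, the caspase that processes filaggrin, had log2 ratios of -0.03 and -0.13. Leaving out *Lor*, 1 of 10 compared members rose and 3 fell, and the median of 20 was -0.24. Within each kind of spot the list stood lower. Its median was -0.69 in basal-rich spots, where 5 of 9 fell and none rose, against -0.18 for all genes with 20 UMIs there. In cornified-rich spots it was -0.59, with 1 of 10 risen and 3 fallen, against -0.01 for all genes.

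In the spinous layer *Krt78*, a keratin of upper stratified epithelium, had the lowest ratio of its list. It stood at 91.8 CPM in HPR-treated, 519 in UVR, 59.0 in retinol-treated and 190.0 in control epidermal spots and was 5.65-fold lower (4.54 to 7.12), and its strips ran from 39.5 to 143 CPM in HPR-treated and from 355 to 652 in UVR epidermis. *Dsg1a*, a desmoglein, fell as well (3.19-fold lower, 2.49 to 4.15). *Krt10* and its partner *Krt1*, the main spinous keratins, went opposite ways without passing 2-fold, 1.46-fold lower (1.31 to 1.63) and 1.31-fold higher (1.15 to 1.49). *Krt77*, a keratin of the layers above the basal one, had 5 UMIs in the whole HPR-treated section, 6 in UVR, 17 in retinol-treated and 296 in control skin. *Krtdap* and *Lgals7*, secreted or cytosolic products of the same layer, were 1.54-fold higher and 1.69-fold higher. The median of the 15 measured spinous members was -0.50, with 2 of 11 fallen and none risen.

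Genes of DNA replication were lower as a group. *Mcm2*, a subunit of the helicase that opens replication origins, stood at 246 CPM in HPR-treated, 663 in UVR, 232 in retinol-treated and 255 in control epidermal spots, 2.70-fold lower (2.35 to 3.11). Its strips ranged from 138 to 381 CPM in HPR-treated and from 509 to 972 in UVR epidermis, so that HPR-treated skin lay at the control level. The helicase subunits *Mcm3* (2.89-fold lower), *Mcm4* (3.29-fold lower) and *Mcm5* (4.69-fold lower (2.52 to 9.65), on 11 and 115 UMIs) fell too. So did *Fen1*, the flap endonuclease (3.83-fold lower), *Tk1*, thymidine kinase (3.38-fold lower), *Ticrr*, an origin-firing factor (2.32-fold lower), and *Rfc3* of the clamp loader (2.30-fold lower). *Gins2* was 1.84-fold lower. Thus 8 of 9 compared members fell, against 10.7% of all genes, and the median of 15 was -1.58; it was -1.39 for retinol-treated over the same UVR section. All 3 compared mitosis genes fell: *Ube2c*, which drives cyclin destruction (3.35-fold lower), and the centromere genes *Cenpm* (2.64-fold lower) and *Cenpa* (2.46-fold lower).

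Within basal-rich spots 7 of 9 replication genes fell and *Mcm2* was 2.45-fold lower (2.12 to 2.85); in cornified-rich spots *Mcm2* was 1.62-fold lower (0.962 to 2.79) on 24 and 43 UMIs, and no member had 100 UMIs. Whether both kinds of spot differ in the size of the ratio was not tested. *Ccnd1*, cyclin D1, which starts the cell cycle, had one of the lowest ratios of all: 39.0 CPM in HPR-treated, 201 in UVR, 23.0 in retinol-treated and 47.5 in control epidermis, 5.15-fold lower (3.68 to 7.41), with strips of 14.5 to 75.2 against 115 to 300.3. Of the cycle inhibitors *Cdkn2b* rose (595 against 234 CPM, 2.54-fold higher, 2.25 to 2.87), while *Cdkn1a*, p21, and *Cdkn2c* stood at -0.56 and -0.92 on the log2 scale. With sections read by the spot grid, *Mcm5*, *Fen1*, *Ticrr*, *Cenpa*, *Cenpm* and *Ube2c* turn to higher and *Cdkn2b* to lower, whereas *Mcm2* and *Ccnd1* stay lower. Of these *Mcm5* then has 15 UMIs, and *Cenpm* and *Ube2c* lie at log2 values of only 0.12 and 0.19.

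Promoters of replication genes often hold sites for E2F factors, which are released at the start of DNA synthesis. Those of 3 genes that fell are shown, with matches to TTTCCCGC, TTTGGCGC, TTTCGCGC or TTTGCCGC on either strand in capitals. *Mcm5* (chr8:75109259-75109558, plus strand) has 2 overlapping matches, beginning 153 and 149 bases before the start; *Rfc3* (chr5:151651159-151651458, minus strand) has one that begins 10 bases before it and a second at the start itself, and *Cenpm* (chr15:82244287-82244586, minus strand) one that begins 71 bases before.
Mcm5: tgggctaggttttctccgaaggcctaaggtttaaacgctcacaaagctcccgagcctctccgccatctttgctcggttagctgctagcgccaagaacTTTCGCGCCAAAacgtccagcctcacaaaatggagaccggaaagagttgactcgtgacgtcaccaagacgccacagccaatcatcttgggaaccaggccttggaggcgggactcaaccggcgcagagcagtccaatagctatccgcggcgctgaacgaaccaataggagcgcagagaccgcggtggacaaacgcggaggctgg
Rfc3: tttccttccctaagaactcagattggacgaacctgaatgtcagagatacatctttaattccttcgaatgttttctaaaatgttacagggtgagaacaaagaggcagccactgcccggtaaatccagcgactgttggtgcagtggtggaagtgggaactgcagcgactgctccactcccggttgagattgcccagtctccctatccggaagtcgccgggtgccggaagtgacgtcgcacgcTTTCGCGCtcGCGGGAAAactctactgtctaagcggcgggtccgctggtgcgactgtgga
Cenpm: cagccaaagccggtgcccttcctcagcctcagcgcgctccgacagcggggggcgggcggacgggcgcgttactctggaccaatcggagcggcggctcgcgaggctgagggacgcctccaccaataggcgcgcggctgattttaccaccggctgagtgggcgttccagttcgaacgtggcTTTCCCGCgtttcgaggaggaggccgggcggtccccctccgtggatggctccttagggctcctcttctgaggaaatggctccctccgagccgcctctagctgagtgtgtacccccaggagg
The words occur in 11 of 32 replication promoters (34.4%) and 3 of 25 mitosis promoters (12.0%), against 2.26% of all promoters and 4.09% of those of the compared genes. *Mcm2*, *Fen1* and *Cenpa* fell without such a word in this window. A match describes letters and is no evidence of binding.

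Of 12 measured targets of p53, the damage-response factor, 10 had ratios below 1, as had 3239 of all 5232 epidermal genes with at least 20 UMIs. *Aen*, an apoptosis nuclease, fell from 322 to 113 CPM (2.85-fold lower, 2.32 to 3.53), *Phlda3* from 590.1 to 247 (2.39-fold lower, 2.08 to 2.76), and *Bax* was 2.11-fold lower (1.75 to 2.55). *Bbc3*, which encodes the cell-death protein PUMA, rose (182 against 86.5 CPM, 2.11-fold higher, 1.70 to 2.61), and *Mdm2*, the p53 inhibitor, was at 0.27 on the log2 scale. So 3 of 9 fell and 1 rose, against 10.7% and 2.65% of all genes, with a median of -0.62 over 12. The metallothioneins, which bind zinc and copper and rise under oxidative stress, both fell in epidermis. *Mt1* stood at 1423 CPM in HPR-treated, 4916 in UVR, 1922 in retinol-treated and 2214 in control epidermal spots, 3.45-fold lower (3.26 to 3.66), and its strips did not overlap (1238 to 1579.9 against 2966 to 7032). *Mt2* was 3.03-fold lower (2.59 to 3.56). *Gpx1* and *Prdx5*, which remove peroxides, stood at -0.40 and -0.35; of 8 antioxidant genes compared only the metallothioneins passed 2-fold. The spot-grid reading turns *Aen*, *Bax* and *Mt2* to log2 values of 0.58, 0.0714 and 0.14, the last 2 near no difference. It does not turn *Mt1* or *Phlda3*.

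Most genes that carry and respond to retinoids stayed within 2-fold, but *Cyp2s1* did not. *Cyp2s1*, an epithelial cytochrome P450 gene (chr7:25802469-25816525), whose enzyme can oxidise retinoic acid, had the lowest ratio of all compared epidermal genes. It had 18 UMIs in HPR-treated and 414 in UVR epidermis, with 19.0 CPM in HPR-treated, 196 in UVR, 19.3 in retinol-treated and 17.8 in control spots, and was 10.3-fold lower (6.44 to 17.6). Its strips spanned 4.82 to 30.1 CPM and 151 to 243, so that only UVR skin stood high. With every spot thinned to 1000 UMIs, 1.98% of HPR-treated and 14.1% of UVR epidermal spots held a *Cyp2s1* UMI (7.18% and 49.4% unthinned). Muscle spots of UVR skin, which should lack it, gave 0.795%. *Crabp2*, which hands retinoic acid to its receptor, was 1.33-fold lower (1.26 to 1.42), and *Fabp5*, an alternative carrier, 1.02-fold higher (0.993 to 1.05). *Dgat1*, which can esterify retinol, was 1.54-fold higher (1.40 to 1.69). Of the 36 genes listed for retinoid handling, 16 had 20 UMIs and 10 were at 0 in HPR-treated epidermis; 2 of 7 compared fell and the median was -0.45.

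The receptor *Rarg* stood at 1223 CPM in HPR-treated, 755 in UVR, 1291 in retinol-treated and 1211 in control epidermis, 1.62-fold higher (1.5 to 1.75), and its partner *Rxra* at 28.5 against 34.0 CPM, within counting error of no difference. *Bhlhe40*, a retinoid-inducible repressor, stood at 0.50 on the log2 scale. None of the 6 compared receptors and responsive genes passed 2-fold, and the median of 13 was 0.11. Ligands of the EGF receptor drive keratinocyte growth, and *Hbegf* is known to rise in retinoid-treated skin. Here *Hbegf* stood at 50.6 CPM in HPR-treated, 46.8 in UVR, 156 in retinol-treated and 0 in control epidermal spots and was 1.08-fold higher (0.750 to 1.54) in HPR-treated over UVR skin, so no difference was detectable at this depth. *Areg* stood at 67.5 CPM in HPR-treated, 116 in UVR, 221 in retinol-treated and 29.7 in control, 1.72-fold lower (1.30 to 2.30), and *Ereg* was 1.42-fold lower (1.12 to 1.82). The EGF list had a median of -0.20, with none of 5 past 2-fold; for retinol-treated over UVR skin the median was 0.53. Under the spot-grid reading *Cyp2s1* has a log2 ratio of 0.12 on 24 UMIs, near no difference.

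*Alox8* (ENSMUSG00000020891, chr11:69183885-69197843), an arachidonate lipoxygenase induced in mouse skin, had the highest ratio of all compared epidermal genes. It stood at 557 CPM in HPR-treated, 56.3 in UVR, 1094 in retinol-treated and 0 in control epidermal spots, where control skin had no UMI, which allows up to 17.8 CPM. It was 9.90-fold higher (8.10 to 12.2), with strips of 467 to 669.5 against 16.5 to 149 CPM. Both kinds of spot shared the difference, 10.0-fold higher in basal-rich and 6.43-fold higher in cornified-rich spots, and the level was highest in cornified-rich spots (860.3 against 444 CPM in basal-rich). After thinning to 1000 UMIs, 35.5% of HPR-treated and 4.41% of UVR epidermal spots held an *Alox8* UMI (68.5% and 20.7% unthinned), against 2.78% and 0.796% of muscle spots. The direction of *Alox8* was the same under the spot-grid reading.

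The other lipoxygenases went different ways. *Alox12*, the platelet-type enzyme, fell to 13.7 from 105 CPM (7.66-fold lower, 4.39 to 14.6), and *Alox12b*, which oxidises barrier ceramides, fell to 53.8 from 113 (2.10-fold lower, 1.55 to 2.90). *Alox12e*, the epidermal-type enzyme, was 1.93-fold higher (1.65 to 2.26); its strips ran from 37.6 to 685 and from 18.3 to 255 CPM and overlapped widely. *Aloxe3*, which acts after *Alox12b*, had 19 and 58 UMIs (1.37-fold lower, 0.803 to 2.43). *Pla2g2f*, the secreted phospholipase of cornified epidermis, rose (2.03-fold higher, 1.46 to 2.83). In all, 2 of 8 compared members of the eicosanoid list rose and 2 fell, against 2.65% and 10.7% of all genes. Its median was -0.46. *Pla2g2f* turns lower by the spot grid. The *Alox8* promoter is shown because the gene leads the comparison; neither the AP-1 nor the E2F words above occur in it (chr11:69197794-69198093, minus strand).
Alox8: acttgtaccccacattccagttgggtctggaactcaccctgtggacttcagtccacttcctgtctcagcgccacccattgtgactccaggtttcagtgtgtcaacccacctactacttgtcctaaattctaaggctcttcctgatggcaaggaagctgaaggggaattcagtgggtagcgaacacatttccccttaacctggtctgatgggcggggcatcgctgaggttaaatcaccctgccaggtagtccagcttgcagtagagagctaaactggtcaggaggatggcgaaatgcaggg
Pairs of the retinoid receptor half-site AGGTCA (A or G as first letter, G or T as the third), in direct repeat with 1, 2 or 5 bases between, occurred in none of the 10 promoters available among the 15 highest epidermal genes or of the 10 among the 15 lowest. They occurred in 0.588% of all promoters and 0.133% of those of the compared genes, so sets of 10 are too small to show a difference. Single half-sites occurred in 2 of the 10 promoters of the highest and 7 of the 10 of the lowest genes. Their share was 35.3% in promoters of the compared genes and 43.7% in all, and the difference was not tested. Elements that lie outside this window were not searched.

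Next in order among the genes that rose was *Fcgbp*, which encodes a mucin-like binding protein, at 90.7 CPM in HPR-treated, 13.2 in UVR, 310.5 in retinol-treated and 131 in control epidermis (6.85-fold higher, 4.43 to 10.9). *Sult5a1*, a sulfotransferase gene, stood at 151 against 26.5 CPM (5.70-fold higher, 4.15 to 7.90), and *Kcnc4*, a voltage-gated potassium channel, at 162 against 28.8 CPM (5.63-fold higher, 4.16 to 7.71). *Was*, which regulates actin in blood cells, was 5.14-fold higher, *Npl*, of sialic acid breakdown, 4.23-fold higher, and *Leng9* 3.97-fold higher. *Srcin1*, an inhibitor of Src kinase, stood at 1586 CPM in HPR-treated, 341 in UVR, 1722 in retinol-treated and 3188 in control epidermal spots and was 4.65-fold higher (4.26 to 5.09); it is higher in control skin than in either treated skin and turns lower by the spot grid.

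*Wnt3* (chr11:103774175-103818021), a secreted Wnt ligand made by epidermis, was the only one of 13 compared Wnt and Notch genes to rise. It stood at 333 CPM in HPR-treated, 67.1 in UVR, 462 in retinol-treated and 392 in control epidermal spots and was 4.96-fold higher (4.06 to 6.09). HPR-treated strips spanned 252 to 381 CPM and UVR strips 48.3 to 105, so UVR skin alone stood low and the treated skins were near control. Thinned to 1000 UMIs, 26.6% of HPR-treated and 5.65% of UVR epidermal spots held a UMI of it (67.4% and 30.3% unthinned). Of muscle spots with 1000 UMIs, 0 of 22 in HPR-treated and 0 of 119 in UVR skin held one, which allows shares of up to 13.6% and 2.52%. *Wnt7b* was 1.87-fold higher. *Wnt3a* fell (2.25-fold lower, 1.59 to 3.26), as did the receptor *Notch1* (2.40-fold lower, 1.66 to 3.57), and the list median was -0.48. By the spot grid *Notch1* turns and *Wnt3* keeps its direction.

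Several enzymes and structural genes stood at the low end beside *Cyp2s1*. *Fa2h*, which makes hydroxylated sphingolipids, had 6 and 131 UMIs, 9.79-fold lower (4.38 to 27.2). Its strips overlapped, from 0 to 12.2 CPM in HPR-treated and from 5.49 to 132 in UVR epidermis, where 1 strip held 76 UMIs. Sebaceous glands are a known source of *Fa2h*, and the 6 measured sebaceous markers had a median of -0.55 in epidermal spots. Their part was not tested. *Aldh4a1*, of proline breakdown, was 6.13-fold lower (3.12 to 13.7) and *Fscn1*, an actin bundler, 6.53-fold lower (3.33 to 14.6). *Tppp3*, a tubulin-binding gene, was 5.02-fold lower, the phosphatase gene *Ptp4a3* 5.45-fold lower, *Tmem229b* 5.69-fold lower and the uncharacterised gene *9530068E07Rik* 7.32-fold lower. The strips of *Tppp3* overlapped too (8.78 to 52.7 CPM in HPR-treated against 22.1 to 303 in UVR epidermis). The oxidase genes *Duoxa1* (6.50-fold lower, 3.19 to 15.4) and *Duox1* (3.20-fold lower), which form 1 hydrogen peroxide-producing complex, both fell. In the water and ion transport list, which holds them, 4 of 11 fell with *Car2*, carbonic anhydrase (3.38-fold lower), and the water channel *Aqp5* (2.29-fold lower), and *Kcnc4* rose. *Aqp3*, the glycerol channel of keratinocytes, was 1.24-fold lower (1.20 to 1.29). *Car9*, a hypoxia target, was 3.28-fold lower and the 1 of 9 glycolysis and hypoxia genes to fall, near the share of all genes, 10.7%. By the spot grid *Fscn1*, *Tmem229b*, *Duox1*, *Car2*, *Car9* and *Aqp5* turn to higher, and *Aqp5* also does so in spots of 1000 to 4000 UMIs.

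Of 17 measured desmosome and adherens junction genes 13 had ratios below 1, as had 3239 of all 5232 epidermal genes with at least 20 UMIs. *Jup* was not among the 13. *Jup*, plakoglobin, which links desmosomes and adherens junctions to the cytoskeleton, had 100806 and 157202 UMIs and stood at 106330 against 74335 CPM, 1.43-fold higher (1.42 to 1.44). Of 13 desmosome and adherens genes 4 fell, against 10.7% of all genes. They were the desmogleins *Dsg1a*, *Dsg1b* (2.42-fold lower) and *Dsg3* (2.62-fold lower), which hold keratinocytes together, and *Pkp3*, plakophilin (2.24-fold lower). *Dsp*, desmoplakin, was 1.16-fold lower (1.01 to 1.33), and the list median was -0.41. *Gjb2*, connexin 26, a gap junction protein raised in thickened epidermis, fell from 565 to 249 CPM (2.27-fold lower, 1.97 to 2.62), and *Gja1*, connexin 43, stood just under 2-fold (1.98-fold lower, 1.63 to 2.40). The tight junction gene *F11r* was 1.21-fold higher. *Klk8*, a desquamation protease (3.27-fold lower, 2.04 to 5.52), and *Cst6*, a cystatin that inhibits cathepsins of the cornified layer (2.25-fold lower, 1.56 to 3.34), were the 2 of 10 protease genes that fell. Of barrier lipid genes, *Lss* of cholesterol synthesis (2.06-fold lower), *Elovl1* (2.25-fold lower) and *Fa2h* were among the 4 of 9 that fell, while *Sptlc2*, of the first ceramide step, and *Elovl4*, of ultra-long fatty acids, stood at 0.33 and 0.55; the median of 27 was 0.06. By the spot grid *Gjb2*, *Dsg1b*, *Dsg3* and *Lss* turn to higher, and *Klk8* turns in spots of 1000 to 4000 UMIs, on 6 UMIs.

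Transcription factors of keratinocytes were mostly within 2-fold. *Gata3*, which supports barrier lipid genes, rose (2519 CPM in HPR-treated, 1183 in UVR, 3110.1 in retinol-treated and 2304 in control epidermis, 2.13-fold higher, 2.01 to 2.25), and *Klf4*, of terminal differentiation, fell (80.2 against 170.2 CPM, 2.12-fold lower, 1.65 to 2.76). *Tcf23*, a helix-loop-helix gene, fell to 120.2 from 274 CPM (2.28-fold lower, 1.86 to 2.81) and turns higher by the spot grid. *Klf5*, a growth factor-responsive relative of *Klf4*, was 1.99-fold lower and *Elf3* 1.52-fold higher. With 1 of 16 risen and 2 fallen, the median was -0.25. AP-1 and other immediate early genes had a median of -0.22, near that of all genes. *Klf4* was the 1 of 14 that fell, against 10.7% of all genes, and *Jun* and *Zfp36* were 1.48-fold higher and 1.47-fold higher. *Pdia3*, a disulfide isomerase of the endoplasmic reticulum, was the 1 of 10 chaperones to rise, with 20728 against 9971 CPM (2.08-fold higher, 2.04 to 2.12); *Hspa5*, the master chaperone, was 1.27-fold lower. *Calr* and *Xbp1*, of protein folding and its stress response, were at 0.40 and -0.30.

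Genes of heat shock, S100 proteins, inflammation and energy metabolism mostly stayed within 2-fold. All 3 compared heat shock genes were lower without passing 2-fold, the mitochondrial pair *Hspe1* and *Hspd1* at -0.97 and -0.63 and *Hspb1* at -0.76 on the log2 scale. Among S100 calcium-binding genes *S100a11* was 1.66-fold higher, and *S100a6*, *S100a16* and *S100a14* were 1.56-fold lower, 1.53-fold lower and 1.45-fold lower. In the inflammation list the NF-kappaB subunits *Nfkb1* and *Rela* stood at 0.48 and 0.09, their inhibitor *Nfkbia* at -0.76 and the chemokine gene *Cxcl14* at -0.38. Among glycolysis genes *Gpi1* was 1.94-fold lower (1.79 to 2.10), *Hk2* 1.31-fold higher and the oxygen-sensing *Egln3* 1.05-fold higher. *Sdhc*, of complex II, was the 1 of 12 respiratory chain genes to fall (2.16-fold lower, 1.34 to 3.63), near the 10.7% of all genes. *Atp5b* stood at -0.99, *Cyc1* at 0.26 and *Ndufb8* at 0.76. The remaining genes under 2-fold were *Psmb4* and *Psmd14* of the proteasome (-0.28 and 0.05), the calcium pump gene *Atp2c1* (0.22), the basement membrane genes *Col4a1* and *Lamc1* (0.92 and -0.17), the EGF receptor relative *Erbb2* (0.13), the protease *Ctsl* and the inhibitor *Spint2* (0.53 and 0.53), and *Crct1* of the cornified layer (-0.37).

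**Figure D4:**
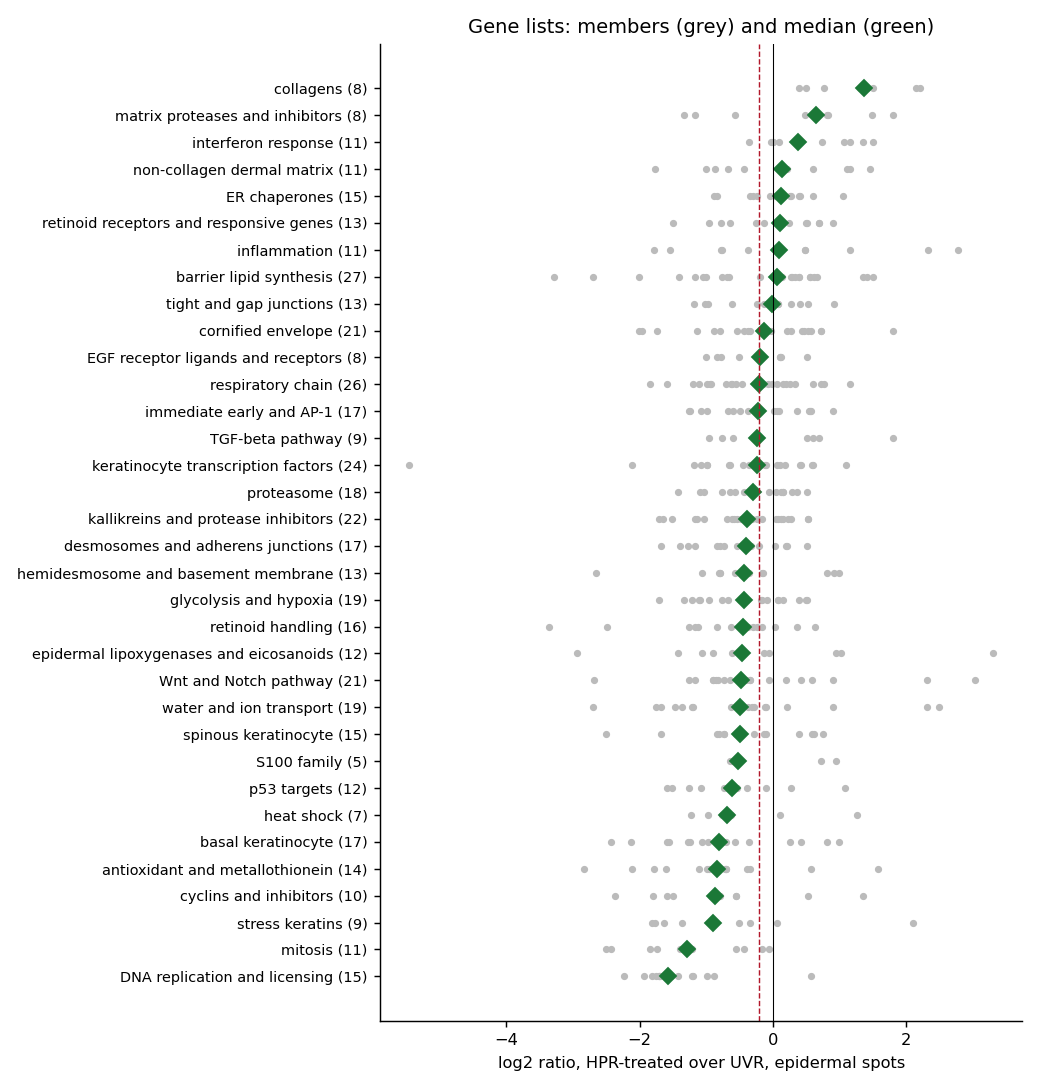
Log2 ratio of HPR-treated over UVR skin in epidermal spots for members with at least 20 UMIs (grey) of 34 gene lists and their median (green diamonds); numbers count members, a member with no UMI in one section sits at its bound, and the dashed line marks the median of all genes, -0.21. Collagens lie highest, at 1.36, and DNA replication genes lowest, at -1.58.

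Collagen transcripts were higher in HPR-treated skin over the whole section. *Col3a1* (chr1:45311538-45349706), a fibrillar collagen of dermis, stood at 423 CPM in HPR-treated, 106 in UVR, 253 in retinol-treated and 411 in control skin, 3.98-fold higher (3.43 to 4.63). The chains of type I collagen followed: *Col1a1* had 177 against 55.1 CPM (3.21-fold higher, 2.59 to 3.99) and *Col1a2* 991 against 294 CPM (3.37-fold higher, 3.08 to 3.70). *Col5a2* was 2.53-fold higher and *Col6a3* 2.13-fold higher. All 7 compared collagens rose, against 3.41% of all genes, and the median of 10 was 1.65. It was 0.89 with epidermal, muscle and other spots given the same weight in both sections and 0.83 as a mean over spots. The sections differed in make-up. Other spots, neither epidermal nor muscle, held 14.8% of UMIs in HPR-treated and 4.91% in UVR skin. Epidermal spots held 75.8% and 82.7%, and muscle spots 9.37% and 12.4%.

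By layer, 5 of 5 compared collagens rose in epidermal spots, against 2.65% of all genes. In muscle spots 2 of 2 rose, where 21.8% of all genes did, and in the remaining spots 1 of 6, against 3.61%. In these other spots, which lie between both bands, *Col1a1* was 1.07-fold lower (0.791 to 1.44), *Col3a1* 1.29-fold higher (1.06 to 1.58) and *Col1a2* 1.33-fold higher (1.17 to 1.51). In epidermal spots *Col3a1* stood at 198 CPM in HPR-treated, 43.0 in UVR, 127 in retinol-treated and 95.0 in control skin, 4.61-fold higher (3.57 to 5.99), with strips of 53 to 312 against 23.8 to 54.3 that touch, and *Col1a1*, *Col1a2*, *Col5a1* (2.47-fold higher) and *Col16a1* (2.67-fold higher) also rose. The 15 fibroblast markers, which include *Col1a1*, *Col1a2* and *Col3a1*, summed to 717 CPM in HPR-treated and 231 in UVR epidermal spots, 455 in retinol-treated and 427 in control; 5 of the 15 had 20 UMIs. *Pdgfra*, *Lum*, *Pi16* and *Mfap5* were at 0 in HPR-treated and *Pdgfra*, *Dpt* and *Mfap5* in UVR epidermis. The 11 fibroblast markers on the panel other than these 3 collagens had 28 UMIs in HPR-treated and 56 in UVR epidermal spots, 29.5 and 26.5 CPM, too few to show a difference. *Col5a1* turns lower in epidermal spots of 1000 to 4000 UMIs. The spot-grid reading turns *Col1a1*, *Col1a2* and *Col3a1* lower over the section.

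Other matrix genes were less uniform. *Loxl1*, which crosslinks elastin, rose over the section (2.33-fold higher, 1.86 to 2.91), but *Eln*, elastin itself, was 1.30-fold lower (0.864 to 2.01) and *Tnxb*, tenascin X, 1.08-fold higher (0.826 to 1.40). *Mmp11*, a stromal matrix metalloproteinase gene, rose, with 60.8 CPM in HPR-treated, 16 in UVR, 15.5 in retinol-treated and 12.3 in control skin (3.79-fold higher, 2.56 to 5.69). In other spots it stood at 281 CPM in HPR-treated, 71.6 in UVR, 18.6 in retinol-treated and 34.2 in control, so that HPR-treated skin alone was high. *Mmp28*, an epidermal metalloproteinase, rose too (3.51-fold higher, 2.53 to 4.92), and they were the 2 of 4 matrix protease genes past 2-fold; *Ctss* and *Adamts1* stood at 0.55 and -0.59, and *Fbln2*, fibulin 2, at -0.11. In the TGF-beta list *Tgfb1*, the ligand, stood at -0.29, *Id3*, *Smad3* and *Bmp7* were 1.64-fold higher, 1.58-fold higher and 1.74-fold lower, and none of 6 passed.

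Class II antigen-presentation genes were higher in HPR-treated epidermis. *Cd74*, the invariant chain of MHC class II, stood at 182 CPM in HPR-treated, 39.7 in UVR, 114 in retinol-treated and 534 in control epidermal spots, 4.59-fold higher (3.52 to 6.04), with strips of 111 to 268 against 22.5 to 54.3 CPM. The class II chains *H2-Ab1* (229 CPM in HPR-treated, 52.5 in UVR, 283 in retinol-treated and 219.7 in control, 4.36-fold higher, 3.45 to 5.53) and *H2-Eb1* (3.59-fold higher) rose with it. Of class I genes, *B2m* rose (2.08-fold higher, 1.49 to 2.92) and the immunoproteasome gene *Psmb8* rose (2.23-fold higher, 1.55 to 3.21), whereas *H2-K1* and *H2-D1* stood at -0.04 and 0.00 on the log2 scale; 2 of 6 interferon-response genes rose. The 20 macrophage and dendritic markers, which include the class II genes, summed to 546 CPM in HPR-treated and 156 in UVR epidermal spots, 498 in retinol-treated and 1039 in control, and 7 and 4 of them were at 0, with *Lyz2*, *Adgre1* and *Itgax* at 0 in both. Without the class II genes the 16 others had 53 and 87 UMIs, 55.9 and 41.1 CPM. Langerhans markers, which share *Cd74* and *H2-Ab1*, had a median of 1.63, and *Cd207*, their defining gene, had 2 UMIs in each section; the part of immune cell number was not tested. In other spots *Cd74* was 1.22-fold higher (0.910 to 1.65). *Igha*, the immunoglobulin A chain of plasma cells, was 1.44-fold higher (1.28 to 1.62) over the section but 1.79-fold lower (1.56 to 2.05) in other spots. By the spot grid *Cd74*, *B2m* and *H2-Eb1* turn lower, and *H2-Ab1* does not.

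Some muscle genes, among them several of fast fibres, were lower in HPR-treated skin, while others did not pass 2-fold. *Myh4*, the fastest myosin heavy chain, stood at 11943 CPM in HPR-treated, 70427 in UVR, 46071 in retinol-treated and 121432 in control muscle spots and was 5.90-fold lower (5.59 to 6.23). *Mylpf*, the fast light chain (4.17-fold lower, 3.76 to 4.63), *Pvalb*, the calcium buffer of fast fibres (5.0-fold lower, 4.15 to 6.07), *Atp2a1*, their calcium pump (3.43-fold lower), *Ttn*, titin (2.66-fold lower), and *Actn3* (2.43-fold lower) fell as well. *Acta1*, *Ckm*, *Tnnt3* and *Myh1* did not pass 2-fold, at -0.58, -0.84, -0.15 and -0.51, and *Myh2* and myoglobin, *Mb*, of oxidative fibres, were 1.37-fold higher (0.997 to 1.86) and 1.39-fold higher (1.15 to 1.67). These spots were chosen on the 7 genes *Acta1*, *Myh1*, *Myh2*, *Myh4*, *Ckm*, *Tnnt3* and *Mylpf*, so those levels are a description. Of the 9 other muscle markers 4 fell and none rose, where 11.4% of the 528 genes compared in muscle spots fell and 21.8% rose. Ratios lay below 1 for 7 of the 9 and above 1 for 2, with a median log2 ratio of -0.94. The markers summed to 144240 CPM in HPR-treated and 302076 in UVR muscle spots. *Krt5* stood at 1801 and 902 CPM there and *Lor* at 1263 and 368. These transcripts of other layers thus made up a larger share of the UMIs in HPR-treated muscle spots. Those spots held fewer UMIs in all (117138 against 318132), so a larger share is not a larger amount. The part of these transcripts in the ratios was not tested. In epidermal spots, where the muscle markers summed to 339.6 and 860.1 CPM, *Myh4* was 4.92-fold lower (3.62 to 6.84). Over the section *Cmya5* and *Mlf1*, both of striated muscle, were 5.10-fold lower and 5.40-fold lower.

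**Figure D5:**
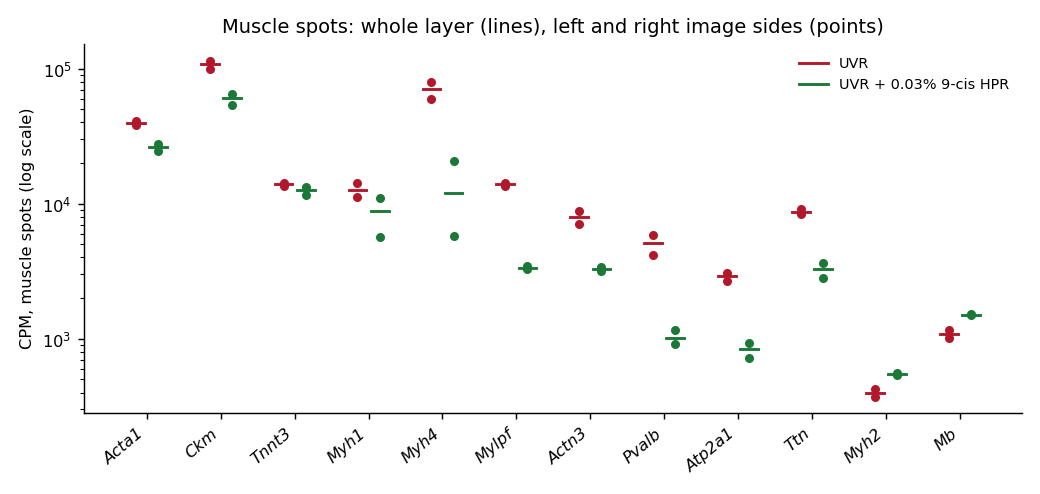
CPM of 12 muscle genes in muscle spots on a log axis for UVR (red) and HPR-treated (green) skin; lines are all muscle spots of a section and points its left and right image sides, which are not replicates. *Myh4*, *Mylpf* and *Pvalb* differ most, and *Myh2* and *Mb* are level or above in HPR-treated skin.

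Beside the retinol-treated section, which shares its capture area and the UVR section it is set against, HPR-treated epidermis had the values that follow. The doses differ, 0.03% 9-cis HPR and 0.1% retinol, so values are set side by side only. Of the stress keratins, *Krt6b* stood at 4993 CPM under HPR and 3386 under retinol, and *Krt16* at 2825 and 2245, all below the UVR section. In the same order *Mcm2* stood at 246 and 232 CPM and *Ccnd1* at 39.0 and 23.0. *Alox8* stood at 557 and 1094, *Alox12e* at 319 and 914, and *Fcgbp* at 90.7 and 310.5 CPM. The EGF receptor ligand genes *Hbegf* and *Areg* stood at 50.6 and 156 and at 67.5 and 221 CPM. Among differentiation and matrix genes *Lor* stood at 21928 and 13059, *Hrnr* at 111 and 43.3 and *Col3a1* at 198 and 127 CPM, and *Tcf23* at 120.2 and 48.8.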

How the data were processed

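Visium libraries were made with a probe kit for fixed tissue from fresh-frozen skin sections, per the labels' protocols. Raw UMI counts by gene and spot were deposited; the submitters' processing notes list Space Ranger 2.0.0, the build mm10 and Seurat 4.1.0, whose role is not given. Matrices had 19465 genes, 11 with a repeated symbol. A probe reports the site it covers, so levels of different genes are not compared. The deposited spot position tables gave image rows and columns.

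Sections were split at the gap in image rows, and counts were summed over spots with at least 200 UMIs. CPM ratios had no pseudocount; a section at 0 was set to 3 counts. Genes needed 100 UMIs over both sections and list members 20; 2-fold was the size rule. Coordinates came from a RefSeq table (GRCm38.p6) matched by symbol for 19106 genes. Named genes are the 15 highest and 15 lowest epidermal ratios in the same direction on both image sides, the 8 highest and lowest over the section (at least 200 UMIs), 2 members at each end of every list, and a fixed set; other list members past 2-fold, the class II genes, *Jup* and the muscle genes were added after their values were seen, and a few genes are not reported here. The members and the 34 gene and 16 marker lists were chosen with earlier results of these data known. Ratios were tested on simulated counts. Python 3.11.15, numpy 2.4.6, pandas 2.3.3, scipy 1.17.1 and matplotlib 3.10.9 were used. Alternatives covered the reading of the sections, scaling, minimums, pseudocount, image sides, spot rules and layer weights.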

Additional observations from a re-analysis of the deposited data

Results flagged for a closer look

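For 3 genes the ratio of HPR-treated over UVR skin passed 2-fold in opposite directions in epidermal and in muscle spots. *Krt14* had a log2 ratio of -1.25 in epidermal and 1.14 in muscle spots (615 against 279.8 CPM, 72 and 89 UMIs), and is one of the genes that chose the epidermal spots. *Mt1* had -1.79 and 1.48 (5515 against 1971 CPM in muscle spots), and *Phlda3* -1.26 and 1.10 (444 against 207 CPM). The difference between layers was not tested. *Krt5* and *Lor* also made up a larger share of UMIs in HPR-treated muscle spots, as given above, whereas *Mt2* had -0.22 there.

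Spots with fewer than 200 UMIs were used in no comparison. In UVR skin 1.79% of their 28119 UMIs were *Krt5* or *Krt14* (1.63% to 1.95%), above the 1.23% of control skin (1.06% to 1.41%); HPR-treated skin had 1.27% and retinol-treated skin 0.748%.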

How the results depend on the processing

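No paired analysis was possible because each group is 1 section. The reading of upper and lower mattered most. By the spot grid, 214 genes rose and 145 fell over the section, 207 and 61 in epidermal spots, and the epidermal replication median was -0.14. Whole-section log2 values turned for stress keratins 1.96, DNA replication 0.34, p53 targets 0.26, collagens -0.36, fibroblast markers -1.86 and Langerhans markers -1.21, and *Col1a1* -2.06, *Col1a2* -1.05, *Col3a1* -0.70, *Col5a2* -0.36 and *Loxl1* -0.75. Epidermal values turned for stress keratins 2.54, mitosis 0.19, p53 targets 0.14, antioxidants 0.33, macrophage markers -1.69 and Langerhans markers -0.40, and *Krt6b* 2.97, *Krt16* 3.14, *Sprr1a* 3.82, *Sprr2h* 1.93, *Sprr2j-ps* 2.43, *Krt14* 1.35, *Hrnr* -1.53, *Mcm5* 1.12, *Ticrr* 1.56, *Fen1* 1.17, *Cenpa* 0.81, *Cenpm* 0.12, *Ube2c* 0.19, *Cdkn2b* -0.40, *Aen* 0.58, *Bax* 0.0714, *Mt2* 0.14, *Cyp2s1* 0.12, *Pla2g2f* -2.10, *Notch1* 0.52, *Duox1* 0.0399, *Aqp5* 0.86, *Car2* 1.01, *Car9* 0.81, *Gjb2* 2.19, *Dsg3* 0.48, *Dsg1b* 0.78, *Lss* 0.23, *Tcf23* 2.04, *Cd74* -2.23, *B2m* -1.87, *H2-Eb1* -1.69, *Srcin1* -0.89, *Col16a1* -0.16, *Fscn1* 0.43 and *Tmem229b* 0.12. Of 91 epidermal genes with a ratio past 2-fold 36 turned and 29 stayed past it.

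A minimum of 20 UMIs gave 378 and 920 genes over the section and 252 and 865 in epidermis; 500 UMIs gave 30 and 73, and 25 and 56. The left image side gave 61 and 120, and 31 and 85. In epidermis, scaling by the median ratio gave 95 and 172 (over the section 139 and 197), a keratin and *Lor* share of 5% gave 37 higher, cornified-rich spots 35 and 45, and spots of 1000 to 4000 UMIs 27 and 56, on fewer genes. The stress keratin median lay at -0.73 with scaling by the median ratio, -0.60 as a mean over spots, -0.62 and -1.02 on the left and right sides, -1.12 with equal weights for both kinds of spot, -1.31 in basal-rich, -0.81 in cornified-rich, -0.82 in spots of 1000 to 4000 UMIs, -0.54 at a 5% share and -1.19 with *Krt5* and *Krt14* alone at 2%. The replication median was -0.67 in cornified-rich spots, on 3 genes. Collagens over the section stood at 0.83 as a mean over spots and 0.89 with layers weighted alike. *Aqp5* turned to 0.59, *Klk8* to 0.18 and *Col5a1* to -0.20 in spots of 1000 to 4000 UMIs, and *Fa2h* to 0.14 and *Krt15*, which had too few UMIs to be compared, to 1.73 in cornified-rich spots, on 2 UMIs and 1 UMI. Apart from these and the grid reading, the genes past 2-fold that were put through the settings, over the section or in epidermal spots, kept their direction. Ratios in muscle spots and in other spots were not put through them. The cause of these changes was not tested. Muscle spots were shallower in HPR-treated skin, and other spots held fewer UMIs in all in UVR skin (125696 against 184743). Both limit what could be detected there, and variation between animals was not measured.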

Other observations

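Among the 15 lowest epidermal ratios were *Per2* and *Dbp*, which belong to the daily clock and its output. *Per2* stood at 8.44 CPM in HPR-treated, 46.3 in UVR, 5.53 in retinol-treated and 11.9 in control epidermal spots (5.49-fold lower, 2.68 to 13.1) and *Dbp* at 10.5 CPM in HPR-treated, 53.9 in UVR, 7.37 in retinol-treated and 41.6 in control (5.11-fold lower, 2.68 to 10.9); the hour at which the skin was taken is not given in the sources used here. In the proteasome list *Psmb6* (2.69-fold lower, 1.67 to 4.56) and *Psmc5* (2.04-fold lower, 1.22 to 3.62) fell, and none of 8 compared members rose. Of all epidermal genes 10.7% fell. *Psmb8*, which replaces a constitutive subunit in the immunoproteasome, is in the interferon response list and rose (2.23-fold higher, 1.55 to 3.21). Respiratory chain genes had an epidermal median of -0.21, that of all genes. Sebaceous *Scd1* had 32 UMIs in HPR-treated and 59 in UVR skin, 25.6 CPM in HPR-treated, 23.1 in UVR, 71.4 in retinol-treated and 374 in control skin.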
